A study of Rattus norvegicus with 24 samples.

Results

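Gfap and 9 other genes that mark astrocytes were followed through every messenger RNA library of a rat study of liver surgery and electroacupuncture. They were picked by symbol: Gfap, Vim, Aqp4, Aldh1l1, S100b, Slc1a2, Slc1a3, Gja1, Glul and Slc25a18, and each symbol matched 1 of the 35032 gene rows of the count table. The 24 libraries came from male Sprague-Dawley rats, 7 weeks old when bought, and from 2 brain regions, the hypothalamic paraventricular nucleus (PVN) and the amygdala's central part (CEA), with 4 treatments of 3 libraries in each region. Normal controls (NC) were restrained and had no operation. The HT rats had part of the left liver lobe removed under isoflurane and were restrained as well. The HT+EA rats had the same operation, with needles at ST36 and SP6 that carried current on the day before and right after surgery, and the HT+SEA rats had needles at the same points with no current. The methods name anaesthesia for the operation and do not say whether NC rats had it, so the operation and its anaesthesia cannot be told apart here. The brain samples were taken 24 h after the last electroacupuncture session, and the methods state that they came from the same batch of rats but not from the same animal.

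Astrocytes are the glial cells that clear glutamate and potassium from around synapses, feed neurons and line blood vessels with their end feet. Gfap, the glial fibrillary acidic protein, and Vim, vimentin, build their intermediate filaments, and a rise of both is the classic sign of a reactive astrocyte. In the hypothalamus astrocytes wrap the vasopressin and oxytocin neurons, and this wrapping is known to loosen when those neurons are strongly driven. Aqp4 is the water channel of the end feet, Gja1 the gap junction protein connexin 43, Slc1a2 and Slc1a3 the glutamate transporters GLT-1 and GLAST, and Glul the glutamine synthetase that turns the cleared glutamate into glutamine. Slc25a18 carries glutamate into mitochondria, Aldh1l1 is a folate enzyme used to mark astrocytes across the brain, and S100b is a calcium-binding protein that mature oligodendrocytes make too.

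The libraries held 13152772 to 18607032 counts, with a median of 16087296, so that 1 count was worth 0.0537 to 0.0760 CPM, the unit of level used here (counts scaled by library size). All 10 genes were counted in every library, from a lowest count of 282 for Aldh1l1 to a highest of 31488 for Glul. The regional labels were met by their markers: Sim1 and Otp, transcription factors of PVN neurons, lay at 9.73 to 16.7 and 23.6 to 30.3 CPM in the PVN and at no more than 0.959 and 1.44 CPM in the CEA. A total of 3 libraries stood apart in the balance of long and short genes. PVN NC replicates 1 and 3 had 0.399 and 0.412 for the mean log2 level of long gene models (4000 bases or more) less that of short ones (under 1000 bases), where the other 10 PVN libraries had 0.699 to 0.897, and CEA HT replicate 2 had 0.0852 against 0.605 to 0.991 in the other 11 CEA libraries. The same 3 libraries had the highest share of counts on ribosomal protein genes, 1.62% to 2.29% against at most 1.51% elsewhere. Most results that rest on the 3 libraries are given with and without them, or as a range over fits that each leave out 1 library. Without them PVN NC is left with replicate 2 alone, which those fits take to vary like the other libraries, so in the PVN they set 1 control library against the operated ones. CEA HT+EA replicate 2 differed in another way: 3.8% of its counts were mitochondrial, where the other 11 CEA libraries had 10.1% to 14.4%, it had the lowest summed level of the 10 genes, and its Gja1 was at 293 CPM where the other CEA libraries had 426 to 556. The study's methods say that 1 set of the CEA EA group was left out of its co-expression network, without naming which. All libraries of that group were kept here. In the CEA, HT+EA against HT and HT+EA against NC are given with and without this library, as is Aldh1l1 in HT+EA against HT+SEA. Its weight in the other comparisons that hold HT+EA is not given.

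To show the regulatory sequence of the 3 filament and mitochondrial genes that came out lower after surgery in the PVN, the 250 bases before their RefSeq starts in the GRCr8 assembly are printed 5′ to 3′ on the gene's strand. The Gfap window is chr10:88361662-88361911 on the minus strand, the Slc25a18 window chr4:155672919-155673168 on the plus strand, and the Vim window chr17:81577011-81577260 on the plus strand. Capitals mark a TATA box (TATAAA), the only match in these 3 windows to 5 motifs searched on both strands.
Gfap: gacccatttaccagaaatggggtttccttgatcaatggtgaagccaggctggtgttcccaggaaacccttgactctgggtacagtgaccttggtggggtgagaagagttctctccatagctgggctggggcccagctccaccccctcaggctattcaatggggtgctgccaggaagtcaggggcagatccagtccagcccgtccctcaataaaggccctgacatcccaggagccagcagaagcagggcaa
Slc25a18: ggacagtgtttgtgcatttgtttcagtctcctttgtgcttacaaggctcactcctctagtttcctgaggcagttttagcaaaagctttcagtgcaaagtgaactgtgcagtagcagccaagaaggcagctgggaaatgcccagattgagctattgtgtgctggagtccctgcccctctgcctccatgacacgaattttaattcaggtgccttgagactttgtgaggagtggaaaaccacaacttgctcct
Vim: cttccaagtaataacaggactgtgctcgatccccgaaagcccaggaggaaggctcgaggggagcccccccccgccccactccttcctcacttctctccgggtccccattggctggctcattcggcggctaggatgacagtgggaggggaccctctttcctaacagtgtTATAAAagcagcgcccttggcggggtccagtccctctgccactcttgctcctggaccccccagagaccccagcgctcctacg

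The other motifs were the palindrome bound by glucocorticoid receptors (arms GNACA and TGTNC with 3 bases between), that of STAT factors (TTCNNNGAA), that of NFI factors (arms TTGGC and GCCAA with 5 bases between) and the AP-1 site (TGANTCA). Over the 33469 windows of the same length in the RefSeq table, 12.9% held the TATA box, 0.373% the glucocorticoid receptor palindrome, 7.67% the STAT palindrome, 0.0359% the NFI palindrome and 6.34% the AP-1 site. All 10 genes had a window, 15 in all since some have several starts. The TATA box of Vim began 82 bases before its start, and the only other match was an AP-1 site 58 bases before the start of Gja1. A window without a match says only that these letters are not in these 250 bases.

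Per kilobase of gene model and over all 24 libraries, S100b was the highest of the 10 genes at 933 ± 90.5 CPM per kb (SD), followed by Glul at 641 ± 83.2, Slc1a2 at 335 ± 123, Slc1a3 at 192 ± 25.7, Gja1 at 151 ± 17.4, Aqp4 at 125 ± 24.2, Gfap at 114 ± 38.0, Vim at 50.4 ± 16.1, Slc25a18 at 41.1 ± 18.6 and Aldh1l1 at 8.57 ± 1.28 CPM per kb. S100b lay above Glul in its whole range over the libraries (847 to 1211 against 498 to 811), and Slc25a18 above Aldh1l1 (13.9 to 75.7 against 5.88 to 11.3). All other neighbours in this order overlapped. The order was not the same in every group. In PVN NC the mean of Slc1a2 (152 CPM per kb) lay below that of Slc1a3 (187), and in CEA NC that of Gfap (185) lay above Slc1a3 (173) and Gja1 (154). The place of Gfap under Aqp4 held in the PVN groups, whereas in the CEA the mean of Gfap lay above that of Aqp4 in all 4 groups (185 against 148 CPM per kb in NC, 103 against 92.2 in HT, 114 against 111 in HT+EA and 118 against 117 in HT+SEA). These levels depend on the gene models of the table. That of Slc1a2 held 882 bases on chromosome 3 (92640752 to 92665644), the shortest of the 10, and that of Aqp4 held 5419. The summed CPM of the 10 genes ran from 4820 to 6977 over the libraries, and it overlapped between every treatment and NC in both regions.

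**Figure D1:**
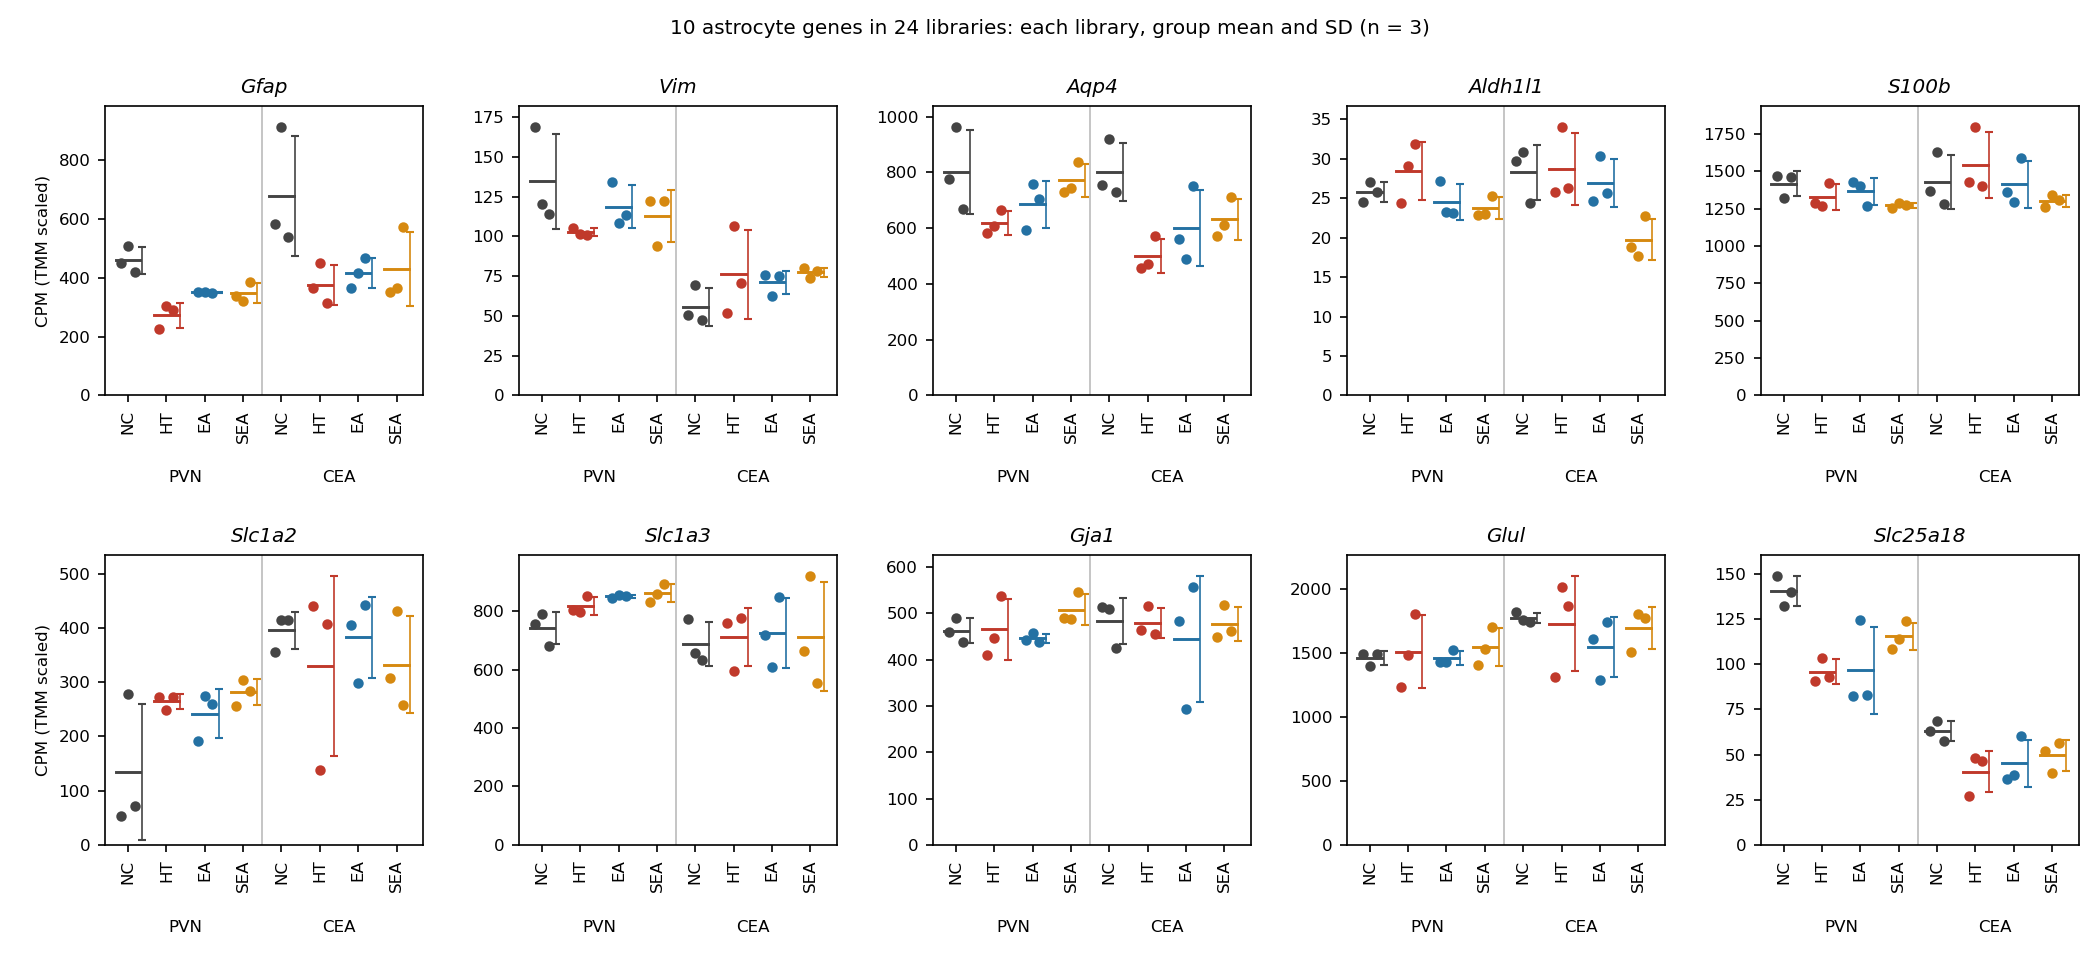
CPM (counts scaled by library size and by the trimmed mean of M-values, TMM) of the 10 genes on linear axes from 0, 1 panel a gene; points are the 3 libraries of a group, the line is their mean and the bar their SD. Gfap stood highest in NC in both regions, Slc25a18 lay lower in all CEA groups than in the PVN, and Slc1a2 was low in 2 PVN NC libraries and 1 CEA HT library.

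The level of Gfap itself was highest in CEA NC, at 679 ± 204 CPM (SD, n = 3), then PVN NC (460 ± 45.0), CEA HT+SEA (431 ± 125), CEA HT+EA (416 ± 51.7), CEA HT (376 ± 68.4), PVN HT+EA (351 ± 0.947), PVN HT+SEA (349 ± 33.8) and PVN HT (273 ± 42.0). The 2 NC groups did not overlap with each other, and PVN HT did not overlap with the group above it. All the other neighbours overlapped. Gfap lies at chromosome 10, 90990762 to 90999506, on the minus strand in the table's coordinates.

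HT against NC asks what surgery changed. In the PVN the filament genes Gfap and Vim, the water channel Aqp4 and the mitochondrial carrier Slc25a18 were lower in all 3 HT libraries than in all 3 NC libraries, while the glutamate transporters, glutamine synthetase, connexin 43, S100b and Aldh1l1 did not reach an unadjusted p under 0.05. None of the 10 passed the adjusted threshold in edgeR. Gfap had 452, 508 and 419 CPM in the 3 NC libraries and 225, 304 and 289 in HT. Its log2 fold change was -0.75 (SE 0.13), which is 0.593 times the NC level, with an edgeR adjusted p = 0.418 in the quasi-likelihood test. The gap between the groups, from 304 to 419 CPM, was wider than the spread within either. In these bulk samples fewer astrocytes and less RNA per astrocyte cannot be told apart. Of the other members, the log2 fold change was 0.01 for Gja1 (SE 0.12), 0.04 for Glul (SE 0.14), -0.09 for S100b (SE 0.09), 0.14 for Slc1a3 (SE 0.09) and 0.14 for Aldh1l1 (SE 0.13).

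Slc25a18 had 149, 132 and 140 CPM in PVN NC and 90.7, 104 and 92.9 in HT, a log2 fold change of -0.55 (SE 0.09, edgeR adjusted p = 0.418). Aqp4 had 775, 962 and 668 CPM in NC and 581, 608 and 666.5 in HT (log2 fold change -0.38, SE 0.14, edgeR adjusted p = 0.418), so its lowest NC library and its highest HT library nearly met. Vim had 169, 121 and 114 CPM in NC and 105, 101 and 101 in HT (log2 fold change -0.39, SE 0.15, edgeR adjusted p = 0.418), and PVN NC replicate 1 was the one far above the rest. Without that library the value for Vim was -0.20, and without PVN NC replicate 2 that for Aqp4 was -0.23.

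Of the 10 genes, 4 were lower and 0 higher at an unadjusted p under 0.05, where 5.35% of the 16727 genes tested were lower and 5.69% higher (11% in either direction). The groups did not overlap for 5 of the 10, these 4 and Slc1a3, which lay higher in HT without reaching that threshold, and for 17.1% of all genes. At an adjusted p under 0.05 edgeR called 0 of the 10, against 0.012% of all genes, and DESeq2 called 2, Gfap (DESeq2 adjusted p = 0.00173) and Slc25a18 (DESeq2 adjusted p = 0.00392), among 31 of 24731 genes. Without PVN NC replicate 2, the NC library that did not stand apart, edgeR called Gfap (log2 fold change -0.68, edgeR adjusted p = 0.0111), Slc25a18 (-0.60, edgeR adjusted p = 0.00363) and Slc1a2, but that fit called 3418 of 16939 genes, where the fit with all libraries called 2. Against PVN NC replicate 2 alone, the 1 NC library that did not stand apart, these 4 genes were past the unadjusted threshold, as were 515 of 17469 genes, and none past the adjusted one, with log2 fold changes of -0.90 for Gfap, -0.65 for Aqp4, -0.47 for Slc25a18 and -0.24 for Vim. Vim lost the unadjusted call when any 1 HT library was left out and Aqp4 when HT replicate 1 or 2 was, which left 2 genes without replicate 1 or 2 and 3 without replicate 3.

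Slc1a2, the transporter that takes up most glutamate in the forebrain, was low in the libraries that stood apart. It had 52.8, 278 and 72.2 CPM in PVN NC and 272, 248 and 273 in HT, so the 2 low values belonged to NC replicates 1 and 3 and the third NC library lay just above HT. The log2 fold change of 0.97 (SE 0.56) was past neither threshold, and against the third NC library alone it was -0.08. In the CEA the library that stood apart, HT replicate 2, had 138 CPM of Slc1a2 where the other 11 CEA libraries had 258 to 443. Gfap was high in all 3 PVN NC libraries, whichever side of this measure they were on.

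**Figure D2:**
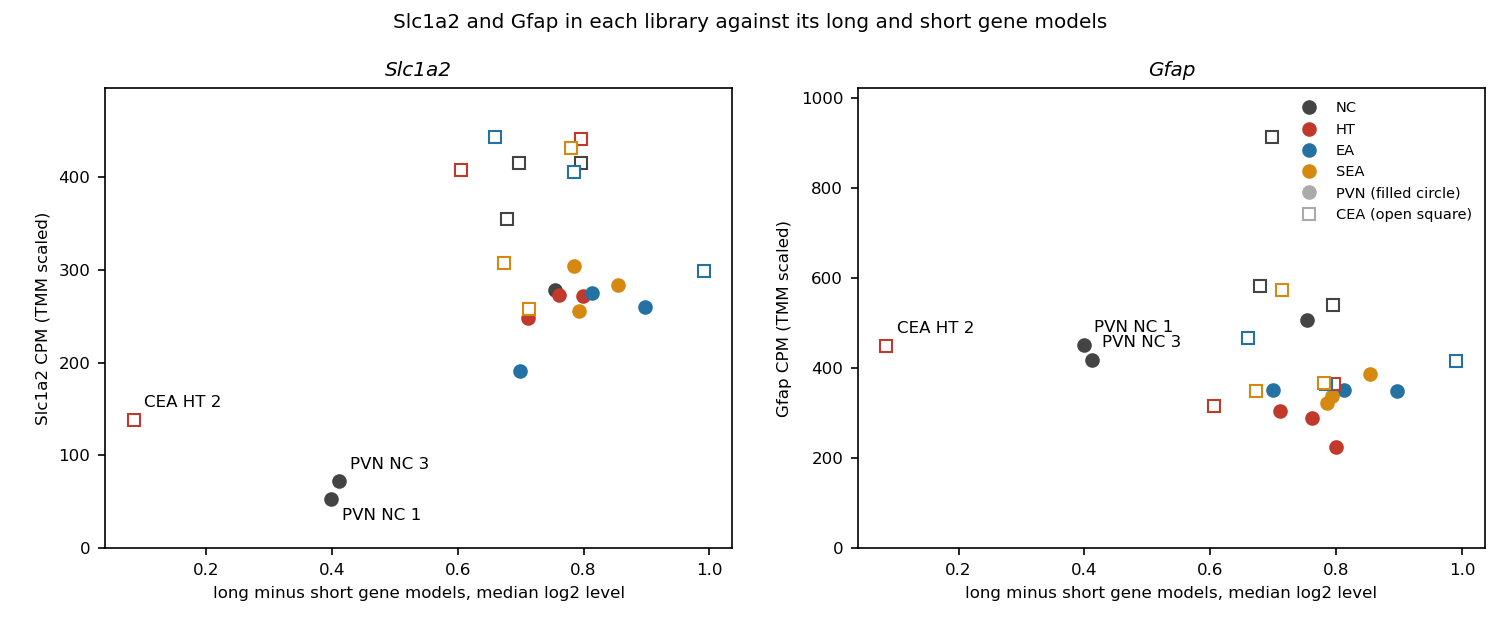
CPM of Slc1a2 (left) and Gfap (right) in each of the 24 libraries on the y axis, from 0, against the mean log2 level of long gene models less that of short ones on the x axis (labelled as a median there). Filled circles are PVN, open squares CEA, colours the treatments. The 3 named libraries sit at the left with Slc1a2 at 52.8 to 138 CPM, below all others, and their Gfap lies within the range of the other libraries.

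Markers of other cells moved with this comparison too. The 4 blood rows (Hbb, 2 rows of Hba-a2 and Alas2) summed to 511 to 768 CPM in PVN HT and 968 to 1333 in NC, and the 4 PVN neuron genes (Sim1, Otp, Avp and Oxt) to 358 to 871 and 894 to 1192, with no overlap in either. Most of the second sum was peptide transcript: the PVN medians were 564 CPM for Oxt and 281 for Avp, beside 27.7 for Otp and 13.3 for Sim1. The sum therefore says little about Sim1 and Otp, which are not given apart here. The 4 genes of central amygdala and striatum summed to 276 to 326 CPM in HT and 210 to 253 in NC. The sums overlapped for 8 neuron genes (3195 to 3459 in HT, 3105 to 3648 in NC), 8 oligodendrocyte genes (11279 to 13497, 9924 to 16638), 6 of 8 ependymal and tanycyte genes (53.0 to 68.7, 53.4 to 77.9), 7 of 8 endothelial genes (208 to 265, 192 to 210), 7 of 8 microglia genes (249 to 274, 243 to 255) and 6 fibroblast genes (40.9 to 74.3, 58.8 to 96.4). The 8 choroid plexus genes came to at most 20.5 CPM in any PVN library. Cldn5 was at 0 in all libraries and Otx2 at no more than 0.0599 CPM. The part of these cells in the result was not tested.

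In the CEA, Gfap, Aqp4 and Slc25a18 were again lower in all 3 HT libraries than in all 3 NC libraries, and Vim was not. Gfap had 583, 913 and 540 CPM in NC and 364, 450 and 315 in HT (log2 fold change -0.83, SE 0.24, edgeR adjusted p = 0.918). CEA NC replicate 2 was far above the other controls, and without it the value was -0.55. Aqp4 had 753, 921 and 728 CPM in NC and 456, 472 and 570 in HT (log2 fold change -0.66, SE 0.16, edgeR adjusted p = 0.918). Slc25a18 had 63.1, 68.4 and 57.3 CPM in NC and 27.3, 47.9 and 46.3 in HT (log2 fold change -0.62, SE 0.22, edgeR adjusted p = 0.918). It lost the unadjusted call without CEA NC replicate 1 or 2, and its value was -0.40 without CEA HT replicate 1 and -0.74 without CEA HT replicate 2, which stood apart. As single libraries were left out, Gfap ran from -0.97 to -0.55 and Aqp4 from -0.76 to -0.54.

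Of the 10 genes, 3 were lower and 0 higher at an unadjusted p under 0.05 in the CEA, where 1.41% of all genes were lower and 2.35% higher (3.75% in either direction). These 3 were also the members whose groups did not overlap, as in 10.4% of all genes. No gene of the 10 and 0% of all genes passed an adjusted p under 0.05 in edgeR, and DESeq2 called 0 of the 10 and 25 of 23979 genes. The replicate numbers paired the libraries in this comparison, and with the number as a block 4 genes passed the unadjusted threshold, as did 985 of 16413 genes (616 without the block), the added one being Vim, higher in HT by 0.43 (SE 0.15, edgeR adjusted p = 0.749). Vim had 50.5, 69.5 and 47.5 CPM in NC and 51.7, 107 and 70.4 in HT, which overlap. The highest value was that of CEA HT replicate 2, the library that stood apart, and without it the log2 fold change was 0.16 in place of 0.47. Among other cells, the microglia sum was 435 to 501 CPM in CEA HT and 307 to 408 in NC and the fibroblast sum 52.8 to 76.8 and 80.3 to 127, with no overlap, and the blood, neuron, oligodendrocyte, endothelial and ependymal sums overlapped. The choroid plexus sum ran from 13.9 to 1072 CPM within NC. Their part in the result was not tested.

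The difference between the regions in the effect of surgery was tested as an interaction. It was -0.10 for Gfap (SE 0.29) and -0.08 for Slc25a18 (SE 0.25) on the log2 scale. For Aqp4 it was -0.31 (SE 0.21). Vim was the only 1 of the 10 with an unadjusted p under 0.05 (0.84, SE 0.34, edgeR adjusted p = 0.413; 0.52 without CEA HT replicate 2), against 12.1% of all genes; edgeR and DESeq2 called 0 of the 10 at an adjusted p under 0.05, and none was past the unadjusted threshold without the libraries that stood apart, with 1 PVN NC library left and a value of 0.38 for Vim, where 379 of 18033 genes passed.

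**Figure D3:**
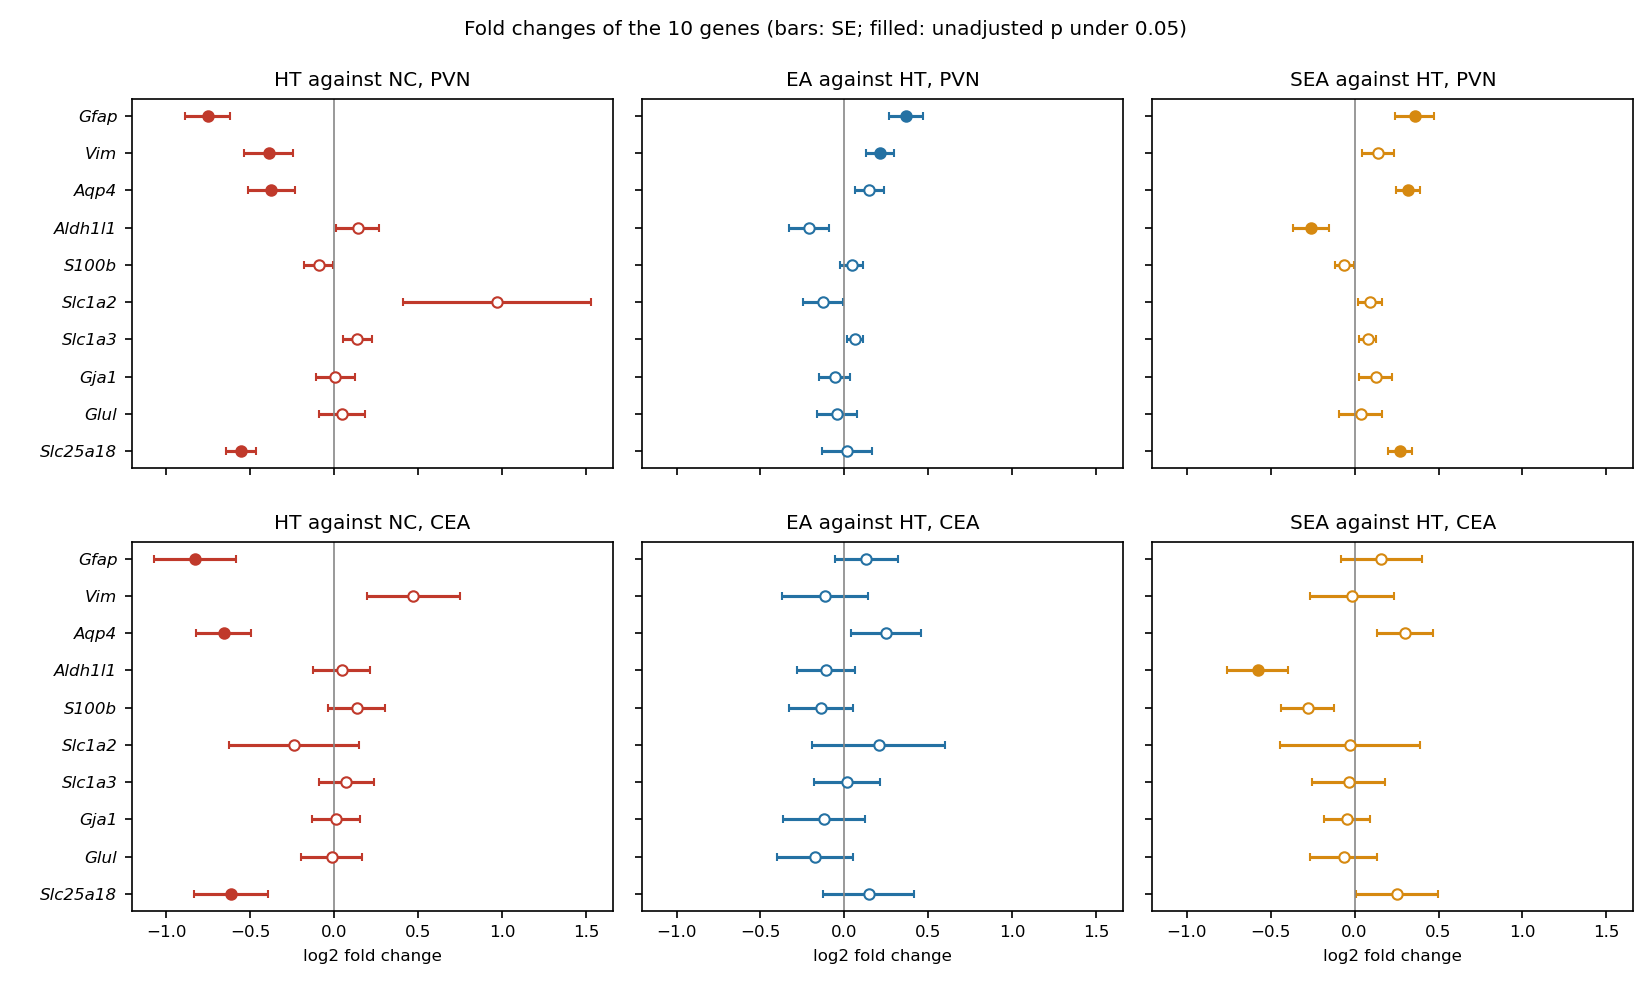
Log2 fold changes of the 10 genes (x axis) for HT against NC, HT+EA against HT and HT+SEA against HT in the PVN (top) and the CEA (bottom); bars are SE and filled points have an unadjusted p under 0.05 in edgeR. Gfap, Aqp4 and Slc25a18 lie left of 0 in HT against NC in both regions (Gfap at -0.75 and -0.83), and Gfap lies right of 0 for both kinds of needling in the PVN (0.37 and 0.36). All panels of a region share its HT libraries.

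HT+EA against HT asks what electroacupuncture added to surgery. In the PVN Gfap and Vim were higher in all 3 HT+EA libraries than in all 3 HT libraries. Gfap had 352, 351 and 350 CPM in HT+EA, the smallest SD of the 8 groups, against 225 to 304 in HT (log2 fold change 0.37, SE 0.10, edgeR adjusted p = 0.526). Vim had 134, 109 and 114 CPM against 101 to 105 (log2 fold change 0.21, SE 0.08, edgeR adjusted p = 0.795). Aqp4 had 594, 758 and 703 CPM and Slc25a18 had 82.2, 125 and 82.9, and both overlapped with HT. Thus 2 of the 10 genes were higher and 0 lower at an unadjusted p under 0.05, where 2.1% of all genes were higher and 3.57% lower (5.67% in all). The groups did not overlap for these 2 members and for 11.3% of all genes. At an adjusted p under 0.05 edgeR called 0 of the 10 and 0.0961% of all genes, and DESeq2 called 1, Gfap (DESeq2 adjusted p = 0.0311), among 100 of 24685 genes. Gfap kept the unadjusted call when any 1 library was left out, with a lowest value of 0.24 without HT replicate 1. Vim lost it without EA replicate 1, its highest library, when its value was 0.11, and when HT replicate 2 or 3 was left out. Without PVN EA replicate 1 the count was 3, since Aqp4 and Aldh1l1 then passed; it was also 3 without EA replicate 2 or without HT replicate 1, and it was 1 when HT replicate 2 or 3 was left out. Among other cells, 2 of the 10 marker sums did not overlap between HT+EA and HT in the PVN, those of blood (788 to 1306 CPM against 511 to 768) and choroid plexus (17.0 to 19.4 against 13.1 to 15.1). Their part in the result was not tested.

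HT+SEA against HT asks the same of needles without current. Gfap had 339, 322 and 387 CPM in PVN HT+SEA, above all HT libraries (log2 fold change 0.36, SE 0.11, edgeR adjusted p = 0.981). Aqp4 had 729, 745 and 839 CPM against 581 to 666.5 in HT (0.32, SE 0.07, edgeR adjusted p = 0.981), and Slc25a18 had 109, 114 and 124 CPM against 90.7 to 104 (0.27, SE 0.07, edgeR adjusted p = 0.981). In all 3 genes the groups did not overlap. Aldh1l1 was lower, with a log2 fold change of -0.26 (SE 0.11, edgeR adjusted p = 0.981), but its groups overlapped (22.9 to 25.3 CPM against 24.4 to 31.8). So 3 genes were higher and 1 lower at an unadjusted p under 0.05, where 2.41% of all genes were higher and 1.97% lower (4.38% in all). The groups did not overlap for 3 members and for 9.84% of all genes. EdgeR called 0 of the 10 and 0% of all genes at an adjusted p under 0.05 and DESeq2 called 1, Aqp4 (DESeq2 adjusted p = 0.0194), among 21 of 24632 genes. The choroid plexus sum in PVN HT+SEA, at most 18.6 CPM, lay above HT in all 3 libraries, and the other 9 marker sums overlapped with HT. The part of these cells in the result was not tested. Gfap lost the unadjusted call without PVN SEA replicate 3, when its log2 fold change was 0.28, and had 0.23 without PVN HT replicate 1. Aldh1l1 had -0.17 without PVN HT replicate 3.

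Current against no current was compared directly. For Gfap in the PVN, HT+EA and HT+SEA differed by 0.01 on the log2 scale (SE 0.07), and the sign of so small a difference turned without PVN SEA replicate 1 or 2. Gja1, the gap junction gene, was lower with current in all 3 libraries (438 to 458 against 488 to 547 CPM, log2 fold change -0.18, SE 0.06, edgeR adjusted p = 0.917). It was the only 1 of the 10 past an unadjusted p under 0.05, against 5.21% of all genes (3% lower, 2.2% higher), and the only 1 whose groups did not overlap, against 10.2%. EdgeR and DESeq2 called 0 of the 10 at an adjusted p. Without PVN EA replicate 2 the count was 4, with 1055 of 16888 genes past the unadjusted threshold. The endothelial sum was the only 1 of the 10 marker sums with no overlap (220 to 233 CPM in HT+EA, 238 to 266 in HT+SEA), and its part in the result was not tested. HT+EA against HT and HT+SEA against HT share the same 3 HT libraries, so their values for Gfap (0.37 and 0.36) are not independent of each other. HT against NC uses these HT libraries with the opposite sign. Low HT values thus lower its value and raise the other 2, and the opposite directions are not independent either.

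In the CEA Gfap had 365, 416 and 468 CPM in HT+EA and 350, 367 and 574 in HT+SEA, both overlapping with HT at 315 to 450. The log2 fold change against HT was 0.13 for HT+EA (SE 0.19, edgeR adjusted p = 0.946) and 0.16 for HT+SEA (SE 0.24, edgeR adjusted p = 0.964), and the latter was -0.11 without CEA SEA replicate 3. Without CEA HT replicate 2, which stood apart, they were 0.28 and 0.31, and without CEA HT replicate 3 the former was 0.02. Without CEA HT+EA replicate 2 the former was again 0.13, and the median over the 10 genes in HT+EA against HT was 0.12 in place of -0.05. Between HT+EA and HT+SEA it was -0.03 (SE 0.21). With errors of this size a shift as large as the 0.37 of the PVN could not be told from none, and the difference between the regions in HT+EA against HT was -0.24 (SE 0.21), with -0.09 without CEA HT replicate 2 and -0.35 without CEA HT replicate 3.

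For HT+EA against HT in the CEA, 0 of the 10 genes passed an unadjusted p under 0.05 (3.19% of all genes did, 1.82% higher and 1.37% lower), none had groups that did not overlap (9.57% of all genes did), and 0 passed an adjusted p in edgeR or DESeq2. The 4 central amygdala and striatum genes summed to 2047 to 2680 CPM in HT+EA and 3158 to 4302 in HT, and the other 9 marker sums overlapped. Aldh1l1 was the gene past the unadjusted threshold with HT+SEA there, at 18.8, 17.7 and 22.7 CPM against 25.8, 34.0 and 26.3 in HT (log2 fold change -0.58, SE 0.18, edgeR adjusted p = 0.959) and 24.7, 30.4 and 25.6 in HT+EA (HT+EA against HT+SEA 0.46, SE 0.14, edgeR adjusted p = 1). Its HT+SEA libraries lay below all of the other CEA libraries. The groups did not overlap for 3 of the 10 genes in HT+SEA against HT and for 1 in HT+EA against HT+SEA, where 10.1% and 6.83% of all genes did not. It was 1 gene of 10 at an unadjusted p under 0.05 in each comparison, where 3.07% (1.38% higher, 1.69% lower) and 1.99% (1.15% higher, 0.839% lower) of all genes passed, and edgeR and DESeq2 called 0 at an adjusted p. Without CEA SEA replicate 1 neither comparison kept the call (log2 fold change -0.54 against HT, and 0.43 for HT+EA against HT+SEA), nor did they without CEA SEA replicate 2 (-0.50 and 0.39). Without CEA HT+EA replicate 2 the second was 0.36, and 1 gene passed.

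HT+EA and HT+SEA were also set against NC. In the PVN Gfap and Slc25a18 lay below NC in both. Gfap at 350 to 352 CPM in HT+EA (log2 fold change -0.38, SE 0.09, edgeR adjusted p = 0.461) and at 322 to 387 in HT+SEA (-0.40, SE 0.10, edgeR adjusted p = 0.375) lay below all NC libraries. Slc25a18 was lower by 0.53 on the log2 scale in HT+EA (SE 0.16) and by 0.29 in HT+SEA (SE 0.08), again with no overlap. Slc1a3, the glutamate transporter GLAST, was higher than NC by 0.21 in both (SE 0.08 in each), and by 0.10 in HT+EA and 0.11 in HT+SEA against PVN NC replicate 2 alone, when neither passed. These 3 genes were the members past an unadjusted p under 0.05 in each comparison, where 10.1% (4.71% higher, 5.41% lower) and 12.7% (6.26% higher, 6.44% lower) of all genes passed. The groups did not overlap for 3 members in HT+EA and 4 in HT+SEA, and for 15.4% and 18.6% of all genes. At an adjusted p edgeR and DESeq2 called 0 of the 10 in either comparison, where edgeR called 0.0119% of all genes for HT+EA and 0% for HT+SEA. Without PVN NC replicate 2 edgeR called 3 genes in HT+EA (Gfap, Slc1a2 and Slc1a3) and 5 in HT+SEA (those 3, S100b and Slc25a18), in fits that called 3239 of 17069 and 4114 of 16908 genes. Against NC replicate 2 alone, Gfap and Aqp4 were the members past the unadjusted threshold in each, as were 791 of 17556 genes in HT+EA and 561 of 17438 in HT+SEA. The endothelial sum was higher in both than in NC (192 to 210 CPM) and the microglia sum higher in HT+EA (266 to 282 against 243 to 255), with no overlap, and their part in the result was not tested.

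In the CEA, Gfap in HT+EA was below all NC libraries (-0.69, SE 0.22, edgeR adjusted p = 0.960) and in HT+SEA it overlapped with NC in 1 library (-0.66, SE 0.27, edgeR adjusted p = 1). Slc25a18 was the other gene past an unadjusted p under 0.05 in HT+EA (-0.46, SE 0.19), so 2 of 10 against 4.42% of all genes (2.4% higher, 2.02% lower). In HT+SEA 5 of 10 passed, against 2.47% of all genes. Gfap, Aqp4 (-0.35, SE 0.14), Aldh1l1 (-0.53, SE 0.14) and Slc25a18 (-0.36, SE 0.15) were lower and Vim was higher (0.46, SE 0.15). The groups did not overlap for 2 and 4 members, and for 10.2% and 6.8% of all genes. EdgeR and DESeq2 called 0 of the 10 in either comparison at an adjusted p, where edgeR called 0.00606% of all genes for HT+EA and 0% for HT+SEA. The sums of central amygdala and striatum (2809 to 3891 CPM in NC), ependyma (33.6 to 37.3 in NC, 37.9 to 46.5 in HT+EA) and fibroblasts did not overlap between HT+EA and NC, and their part in the result was not tested. Without CEA NC replicate 2 Gfap had -0.41 in HT+EA and -0.38 in HT+SEA, and Aqp4 had -0.23 in HT+SEA. Slc25a18 in HT+EA was -0.72 without CEA EA replicate 3, and in HT+SEA -0.21 without CEA SEA replicate 2. Without CEA HT+EA replicate 2 Gfap had -0.70 and Slc25a18 -0.37 in HT+EA, and 2 genes passed. Without CEA EA replicate 1 none of the 10 passed for HT+EA, and without CEA NC replicate 1 or 3 Gfap alone did. For HT+SEA, Aldh1l1 alone passed without CEA SEA replicate 1, Vim and Aldh1l1 without CEA NC replicate 2, and 3 genes without CEA NC replicate 1 or 3 or CEA SEA replicate 2.

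Since all 3 operated groups lay below NC for Gfap, their mean was compared with NC, a comparison added after the data were seen. Over the 9 operated PVN libraries Gfap ran from 225 to 387 CPM with a median of 339, and all 9 lay below the 3 NC libraries at 419 to 508. Slc25a18 did the same (82.2 to 125 against 132 to 149 CPM), and Slc1a3 lay above NC in 9 of 9 (797 to 896 against 682 to 791 CPM). In the CEA, 8 of 9 operated libraries lay below all NC libraries for Gfap, for Aqp4 and for Slc25a18, while Vim was above all NC libraries in 7 of 9. The groups of all operated libraries and NC did not overlap for 3 members in the PVN and 0 in the CEA, and for 4.19% and 0.587% of all genes. These comparisons share their NC libraries with those above.

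The mean of the operated groups less NC was -0.51 for Gfap in the PVN (SE 0.09, edgeR adjusted p = 0.0772) and -0.74 in the CEA (SE 0.19, edgeR adjusted p = 1). In the PVN 6 of 10 genes passed an unadjusted p under 0.05, where 29.8% of all genes did. Gfap, Slc25a18 (-0.46), Vim (-0.28) and Aqp4 (-0.22) were lower and Slc1a3 (0.18) and Slc1a2 (0.96) higher. Without PVN NC replicate 1 the value for Vim was -0.08, and without PVN NC replicate 2 that for Aqp4 was -0.07 and that for Slc1a2 2.07. Slc1a2 had 0.58 without PVN NC replicate 1, and Aqp4 -0.33 without PVN NC replicate 3. Against PVN NC replicate 2 alone Slc1a2 had -0.09, Slc1a3 0.08, Vim -0.13 and Aqp4 -0.49, and 3 members passed, as did 608 of 17898 genes. In the CEA 4 of 10 passed, against 2.82% of all genes: Gfap, Aqp4 (-0.48) and Slc25a18 (-0.48) were lower and Vim (0.43) higher, and Gfap had -0.45 without CEA NC replicate 2. EdgeR called 0 of the 10 at an adjusted p in either region. Its share of all genes called was 0.0639% for the PVN and 0% for the CEA. DESeq2 called 3 members for the PVN (Gfap, Slc1a3 and Slc25a18), among 2268 of 25920 genes. For the CEA DESeq2 called 0 members, where 9 of 25127 genes passed. Without PVN NC replicate 2, edgeR called 4 members for the PVN, among 5885 of 17448 genes.

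Over both regions Gfap was lower in the operated rats, with a log2 fold change of -0.62 (SE 0.11, edgeR adjusted p = 0.0165). This comparison was made because Gfap was seen to lie low in the same libraries, so its p is no independent support. The methods name fewer rats than there are libraries and the labels tie no library to a rat, so libraries of both regions may come from 1 rat, while the test takes them as separate samples. It was the only 1 of the 10 past an adjusted p under 0.05, where 0.214% of all genes passed, and DESeq2 called Aqp4 and Slc25a18 as well, among 103 of 26835 genes. The edgeR call was lost without the 3 libraries that stood apart (-0.71, edgeR adjusted p = 0.160), without PVN NC replicate 3 (-0.66, edgeR adjusted p = 0.0556) and without CEA NC replicate 2 (-0.49, edgeR adjusted p = 0.0986). Aqp4 (-0.35, edgeR adjusted p = 0.164) and Slc25a18 (-0.47, edgeR adjusted p = 0.123) did not pass the adjusted test. They did in edgeR without CEA EA replicate 3, when 3 members and 50 of 18055 genes were called, and 3 were also called without PVN NC replicate 2, among 876 of 18040 genes.

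Between the regions 7 of the 10 genes differed, in both directions, beside 56.3% of all genes. Over all treatments, with 12 libraries a region, Gfap (log2 fold change 0.39, SE 0.10, edgeR adjusted p = 0.00121), Slc1a2 (0.69, SE 0.23, edgeR adjusted p = 0.0158) and Glul (0.17, SE 0.07, edgeR adjusted p = 0.0432) were higher in the CEA. Slc25a18 (-1.18, SE 0.10, edgeR adjusted p = 4.07e-10), Vim (-0.74, SE 0.12, edgeR adjusted p = 8.73e-06), Slc1a3 (-0.20, SE 0.07, edgeR adjusted p = 0.0173) and Aqp4 (-0.20, SE 0.08, edgeR adjusted p = 0.0346) were lower. Slc25a18 was the only 1 of the 10 with no overlap between regions, at 27.3 to 68.4 CPM in the CEA and 82.2 to 149 in the PVN. The share of all genes with no overlap was not counted over all treatments, and it was 45.3% in NC alone. So 7 of 10 genes were called, where 56.3% of all genes were. Aldh1l1 (0.00, SE 0.07), S100b (0.08, SE 0.05) and Gja1 (0.00, SE 0.07) did not pass. The value for Glul depended on the scaling: by total counts, which moved the median of all genes from -0.01 to -0.15, it was 0.03 (edgeR adjusted p = 0.684). That scaling also gave 0.26 for Gfap, -0.34 for Slc1a3 and -0.34 for Aqp4, which kept their direction and call, and in NC alone 0.11 for Glul. DESeq2 called 6, all but Aqp4, among 10535 of 26818 genes, and the calls of Aqp4 and Glul were each lost in many of the fits that left out 1 library.

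In NC alone, with 3 libraries a region, edgeR called 2 of the 10, Vim (-1.27, SE 0.20, edgeR adjusted p = 0.00514) and Slc25a18 (-1.16, SE 0.11, edgeR adjusted p = 0.000877), where it called 26.4% of all genes. Vim had 50.5, 69.5 and 47.5 CPM in the CEA and 169, 121 and 114 in the PVN. Gfap was higher in every CEA library (0.56, SE 0.21, edgeR adjusted p = 0.0844; 0.29 without CEA NC replicate 2), as were Slc1a2 (1.55, SE 0.58, edgeR adjusted p = 0.0864) and Glul (0.27, SE 0.09, edgeR adjusted p = 0.0599). The replicate numbers paired these libraries too, and with the number as a block edgeR called 4, adding Gfap (edgeR adjusted p = 0.0378) and Slc1a2, among 4613 of 16748 genes. DESeq2 called 4, Gfap, Vim, Glul and Slc25a18, among 4863 of 24531 genes. With PVN NC replicate 2 as the only PVN library, Slc25a18 alone was called, among 431 of 17556 genes, and Slc1a2 was at 0.55. Without PVN NC replicate 2 edgeR called 3 with Slc1a2 at 2.66, among 6152 of 17041 genes. Markers of other cells differed with region as well. The oligodendrocyte sum was 26326 to 43583 CPM in the CEA and 9924 to 16638 in the PVN, and S100b and Glul are made by oligodendrocytes too. Their part in the result was not tested.

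**Figure D4:**
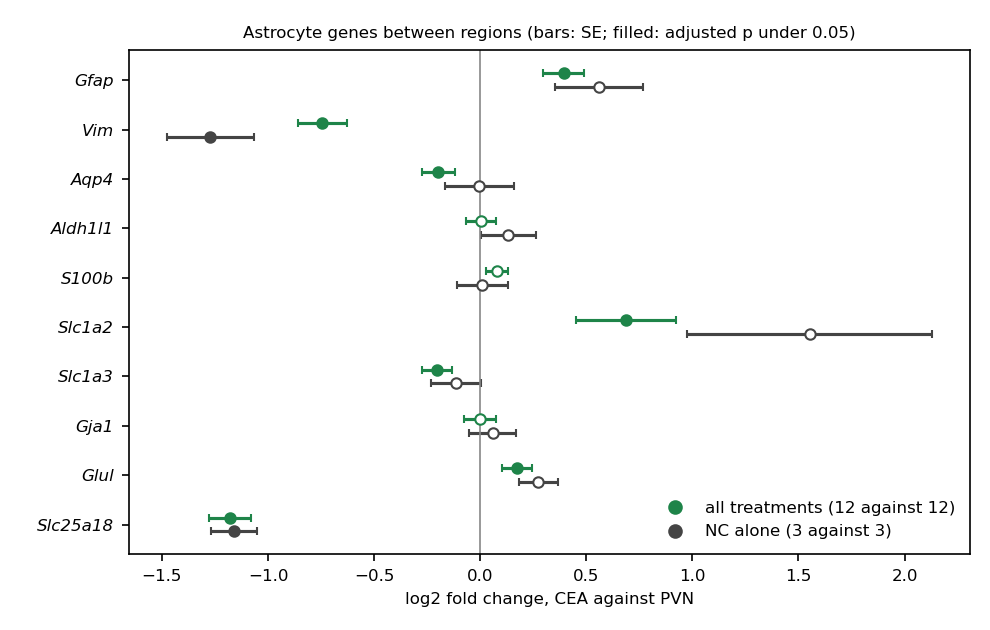
Log2 fold changes of the 10 genes in the CEA against the PVN (x axis), over all treatments (green, 12 libraries a region) and in NC alone (grey, 3 a region); bars are SE and filled points have an edgeR adjusted p under 0.05. Slc25a18 (-1.18 and -1.16) and Vim (-0.74 and -1.27) lie left of 0 in both fits, and Gfap, Slc1a2 and Glul lie right of it.

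Other astrocyte genes did not share one direction. Of 32 further astrocyte genes, all tested, 2 were higher and 1 lower at an unadjusted p under 0.05 in PVN HT against NC, beside the 11% of all genes given above, and their median log2 fold change was 0.04, beside -0.01 over all genes. The count of 3 ran from 2 to 16 as single libraries were left out, and 16 was the fit without PVN NC replicate 2, in which 5992 of 16939 genes passed. Glud1, the glutamate dehydrogenase of mitochondria, was lower (-0.43, SE 0.07, edgeR adjusted p = 0.418), with 536 ± 26.7 CPM in HT and 721 ± 5.99 in NC (SD, n = 3). The adhesion molecule Hepacam (0.38, SE 0.12) and Gpam, an enzyme of glycerolipid synthesis (0.61, SE 0.22), were higher, and the transcription factor Nfia had 0.41 (SE 0.18). In the CEA 3 were higher and 2 lower, with a median of -0.10 beside 0.02 over all genes, beside 3.75% of all genes past the threshold. With 1 library left out at a time, that total was lowest at 1, when CEA NC replicate 2 was missing, and highest at 10, when CEA HT replicate 3 was, in fits where 336 of 16677 and 969 of 16704 genes passed. Ndrg2 (0.67, SE 0.19) and the chemokine Cxcl14 (0.47, SE 0.15) were among the higher ones, and Ncan, the matrix protein neurocan (-0.68, SE 0.24), and Glud1 (-0.46, SE 0.17) were the lower ones.

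In HT+EA against HT none of the 32 passed an unadjusted p under 0.05 in the PVN, where the smallest p values were those of Sox9 (0.19, SE 0.09), the GABA transporter Slc6a11 (-0.14, SE 0.07), Acsbg1 (-0.11, SE 0.06) and the glutamine transporter Slc38a3 (0.08, SE 0.06). In the CEA, Cxcl14 was lower (-0.52, SE 0.17) and the growth factor receptor Fgfr3 higher (0.40, SE 0.16), where 3.19% of all genes passed, and the bicarbonate transporter Slc4a4 (0.56, SE 0.26) and the lipid carrier Apoe (-0.43, SE 0.25) did not pass. Cxcl14 lay at 101 ± 6.0 CPM in NC, 138 ± 19.6 in HT and 97.2 ± 11.1 in HT+EA. As single libraries were left out the count ran from 0 to 2 in the PVN and from 0 to 3 in the CEA; it was 2 when PVN HT replicate 3 was missing and 0 when CEA EA replicate 2 was.

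Of 20 genes known to rise in reactive astrocytes, 19 were tested in the PVN and 17 in the CEA for HT against NC. In the PVN 0 were higher and 3 lower at an unadjusted p under 0.05, where 5.35% of all genes were lower: Nes, the filament protein nestin (-0.95, SE 0.31), S100a10 (-0.34, SE 0.12) and the complement gene C3 (-0.73, SE 0.25). Tm4sf1 had -0.54 (SE 0.27). The median of the list was 0.07, beside -0.01 over all genes. Nes and C3 were low genes, at 2.32 ± 0.779 and 6.30 ± 1.46 CPM in HT. In the CEA C3 was lower (-0.88, SE 0.37), where 1.41% of all genes were lower, and the small heat shock protein Hspb1 (0.46, SE 0.21), the complement inhibitor Serping1 (0.71, SE 0.33) and the protease inhibitor Timp1 (0.84, SE 0.41) did not pass, with a list median of 0.02. As single libraries were left out the PVN count ran from 1, when HT replicate 1 was missing, to 4, when NC replicate 1 or HT replicate 2 was. The CEA count was 0 when NC replicate 2 or HT replicate 2 was missing and 1 otherwise. None passed in HT+EA against HT in either region, but leaving out single libraries gave 0 to 3 in the PVN, the 3 without HT replicate 3, when 1361 of 16860 genes passed, and 0 to 1 in the CEA.

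Of 11 other intermediate filament genes, Synm, synemin, was higher (0.38, SE 0.16) and Nes lower in PVN HT, where 11% of all genes passed, and the neurofilament Nefl (0.21, SE 0.09) and the lamin Lmna (-0.22, SE 0.10) did not pass. Nes is in the reactive list too, so it is the same gene counted in both lists. In the CEA, Des, desmin, was higher (0.54, SE 0.23), where 3.75% of all genes passed. As single libraries were left out the PVN count of 2 ran from 1 to 4, the 4 without NC replicate 2, when 5992 of 16939 genes passed, and the CEA count was 1 in the fit without CEA HT replicate 1 and 0 in the other 5. None passed in HT+EA against HT, where such fits gave 0 to 1 in each region. No gene of the 3 lists passed an edgeR adjusted p under 0.05 in HT against NC or HT+EA against HT of either region. Between the regions edgeR called 20 of the 32 astrocyte genes, 12 of the 19 reactive genes tested and 7 of the 11 filament genes, beside 56.3% of all genes.

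**Figure D5:**
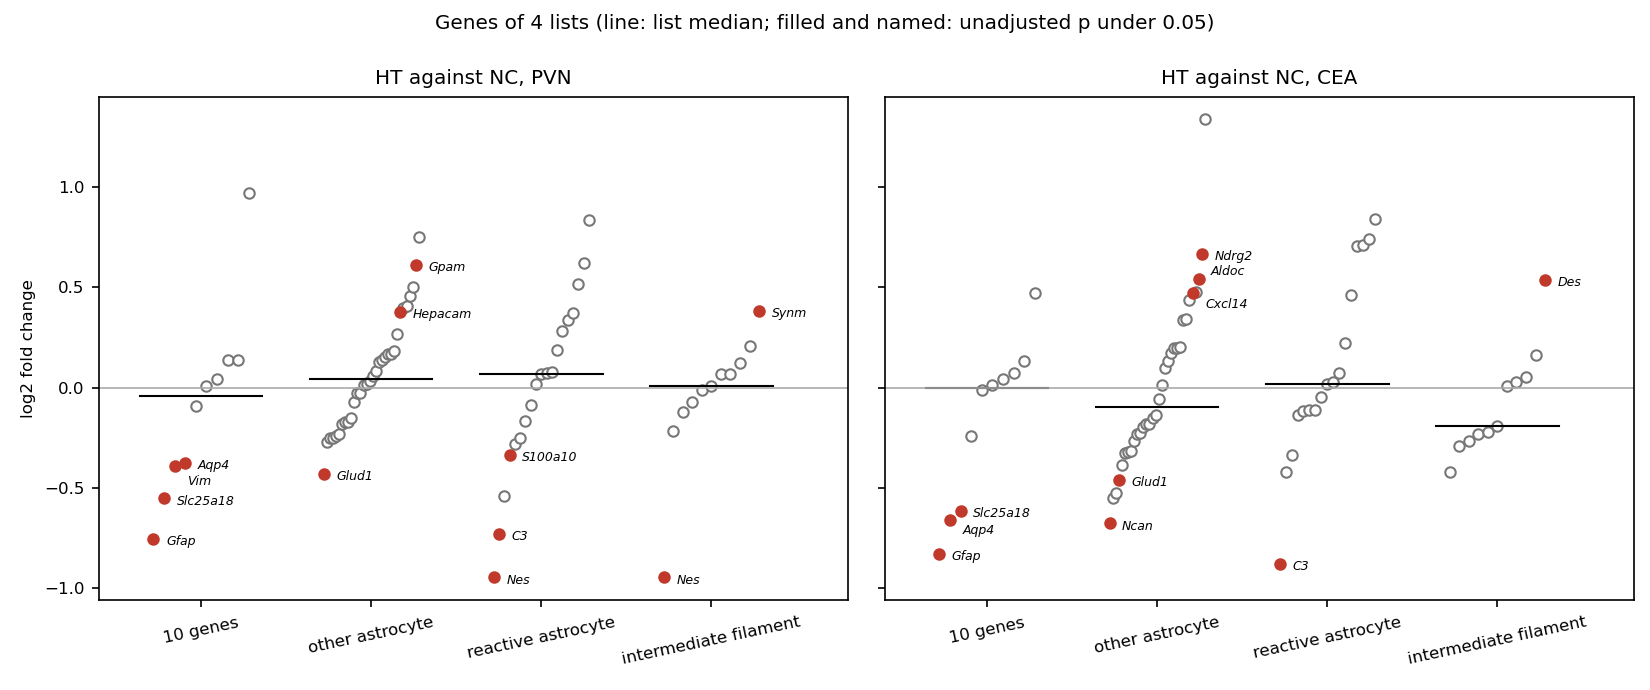
Log2 fold changes (y axis) of HT against NC in the PVN (left) and the CEA (right) for the 10 genes and 3 lists of related genes, each point a gene in order of its value; lines are list medians, and filled, named points have an unadjusted p under 0.05 in edgeR. In the PVN the list medians lie between -0.04 and 0.07, with Gfap at -0.75 and Nes at -0.95 at the bottom. Nes is in both the reactive and the filament list and is drawn in each.

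The genes whose levels ran most like Gfap over the 12 libraries of a region were ranked by Pearson's r of log2 CPM among 16215 genes with a symbol, as a description only, since the libraries share their treatments and their depth. In the PVN they were the collagen Col16a1 (r = 0.91), the replication factor Pclaf (0.91), Serpinf1 (0.90), the proteasome subunit Psmd11 (0.89) and the serine synthesis enzyme Psph (0.88). In the CEA they were Top2a, a topoisomerase of dividing cells (0.94), Ift80 (0.90), RGD1559896 (0.90), the spindle protein Nusap1 (0.90) and the mitotic checkpoint kinase Bub1b (0.88). Nusap1 had an r of 0.87 in the PVN as well and Pclaf 0.71 in the CEA, whereas Ift80 had -0.04 in the PVN and Psph 0.13 in the CEA. Some of these genes lay near the floor, at a median of 0.281 CPM for Pclaf in the PVN (0 to 0.822) and of 1.21 for Top2a, 0.512 for Nusap1 and 0.197 for Bub1b in the CEA. Among the members, Aqp4 had an r with Gfap of 0.74 in the PVN and 0.78 in the CEA and Slc25a18 of 0.68 and 0.71, Vim had 0.59 and -0.16, and Slc1a3 had -0.33 and -0.35.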

How the data were processed

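Messenger RNA was sequenced from PVN and CEA samples of rats. Per the study's methods, strand-specific libraries were aligned with HISAT2 and counted per gene with featureCounts (versions and the strand setting of the counting are not given in the sources used here), and the authors deposited raw counts of 35032 genes in 24 libraries. The methods name mRatBN7.2, while the submitters' processing notes list GRCh38 and hg38, and the table's genes on chromosome 1 reach 282724300; the gene coordinates are therefore the table's own and were not tied to an assembly. A stray second header line, which exchanges CEA EA replicates 2 and 3, was left out, and columns follow the sample titles. No pair of libraries was identical.

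Groups were compared with edgeR 4.0.16 in R 4.3.3: genes were kept by filterByExpr, libraries scaled by TMM, and the 3 libraries of each group tested by the two-sided quasi-likelihood test, with Benjamini-Hochberg adjustment over all genes tested and a threshold of 0.05. CPM and CPM per kb are TMM-scaled over the 24 libraries. DESeq2 1.42.0, other scalings, no filter, all groups of a region in 1 fit, a replicate block and leaving out each library were the alternatives; the comparisons of operated groups with NC and the fits without the 3 libraries that stood apart were added after seeing the data. The code was tested on simulated data. The members and the gene lists were chosen with earlier results of these data known. Fold changes are given for Gfap in every comparison and for members with an unadjusted p under 0.05, library values for Gfap, Vim, Aqp4 and Slc25a18, and from each list up to 4 genes with the smallest p. The lists' genes Itgam, Pecam1, Foxj1, Dio2, Hba-a1 and Serpina3n matched no symbol of the table.

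Replicate numbers were taken to pair libraries where same-numbered libraries deviated together with every r over 0.1, which held for HT against NC in the CEA and for CEA against PVN in NC. The labels do not say that the libraries came from separate rats, so p-values measure the spread between these samples. Promoter windows come from RefSeq, GRCr8.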

Additional observations from a re-analysis of the deposited data

Results flagged for a closer look

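The effect of surgery on Vim differed between the regions by 0.84 on the log2 scale (CEA less PVN, SE 0.34, edgeR adjusted p = 0.413), and it was picked out because the unadjusted test of that difference passed. Vim was lower in 3 of 3 HT libraries than in all NC libraries in the PVN and overlapped with NC in the CEA. It did not pass after adjustment, and without the 3 libraries that stood apart, with 1 PVN NC library left, it was 0.38.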

How the results depend on the processing

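Of 1006 alternative values of 61 fold changes of single genes, 997 kept their direction, and of 588 alternative counts of members called, 523 stayed within 1.5 times. Of the values that turned, Gfap in HT+EA against HT+SEA ran from -0.042 to 0.088 in the PVN, with -0.0089 in between, and from -0.17 to 0.23 in the CEA as single libraries were left out, and was 0.0039 in the CEA when scaled by total counts. Gfap in HT+SEA against HT in the CEA ran from -0.11 to 0.31 and the region difference of its HT effect from -0.25 to 0.17. Slc1a2 in operated rats against NC in the PVN was 0.96 with all libraries and -0.094 without those that stood apart, which leaves 1 PVN NC library.

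Counts of members past the adjusted threshold by DESeq2 were 2 for HT against NC, 1 for HT+EA against HT, 1 for HT+SEA against HT and 3 for operated against NC in the PVN, 3 for operated against NC over both regions and 4 between regions in NC. By DESeq2 3 passed unadjusted in HT+EA against HT+SEA in the PVN, where 5.21% of all genes passed in the main edgeR fit. With no filter, 2 passed unadjusted in that comparison and 1 passed adjusted for operated against NC in the PVN, where 0.0639% of all genes did in the main fit. With all groups of a region in 1 fit, 1 passed unadjusted in HT+EA against HT in the PVN, 0 in HT+EA against HT+SEA in the PVN and 2 in HT+SEA against NC in the CEA. In the main fits 5.67%, 5.21% and 2.47% of all genes passed in the same order. Scaled by total counts, 2 passed unadjusted in HT+SEA against HT and 2 in HT+SEA against NC in the CEA, and 3 between regions in NC. For these, 3.07%, 2.47% and 40% of all genes passed in the main fits. Without the libraries that stood apart, 1 passed adjusted between regions in NC, 0 unadjusted in the region difference of HT against NC, 3 unadjusted in operated against NC in the PVN and 0 adjusted over both regions. The cause was not tested.

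Leaving out single libraries, the adjusted count ran from 0 to 3 for HT against NC, 0 to 3 for HT+EA against NC, 0 to 5 for HT+SEA against NC and 0 to 4 for operated against NC in the PVN, 2 to 3 between regions in NC, 0 to 1 in the region difference of HT against NC and 0 to 3 for operated against NC over both regions. The unadjusted count ran in the PVN from 2 to 6 for HT against NC, 1 to 3 for HT+EA against HT, 1 to 4 for HT+EA against HT+SEA, 2 to 4 for HT+EA against NC, 2 to 6 for HT+SEA against NC and 3 to 6 for operated against NC. The upper ends of the comparisons with NC were reached without PVN NC replicate 2, when 5992 of 16939, 5804 of 17069, 6416 of 16908 and 7572 of 17448 genes passed in the same order. In the CEA the unadjusted count ran from 2 to 4 for HT against NC, 0 to 1 for HT+SEA against HT and for HT+EA against HT+SEA, 0 to 3 for HT+EA against NC, 1 to 5 for HT+SEA against NC and 2 to 4 for operated against NC. With all libraries 3.75%, 3.07%, 1.99%, 4.42%, 2.47% and 2.82% of all genes passed in the same order. Between regions in NC the unadjusted count ran from 3 to 5, in the region difference of HT against NC from 0 to 3 and in that of HT+EA against HT from 0 to 1. For these, 40%, 12.1% and 4.52% of all genes passed with all libraries.

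With the replicate number as a block, 4 members passed unadjusted in HT+EA against HT+SEA in the PVN and 2 in HT+SEA against NC in the CEA, where the numbers do not pair the libraries, and 4 passed adjusted between regions in NC, where they do. Without the block 5.21%, 2.47% and 26.4% of all genes passed in the same order. Each library was most like its own number in 2 of 13 pairs of groups, the same 2 in which the numbers were taken to pair them; the block changed no other count by over 1.5 times. With 3 libraries a group and SEs of 0.19 to 0.27 for Gfap in the CEA, a shift had to be well above its SE to be detected there.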
